A study of Saccharomyces cerevisiae with 2 samples.

Results

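The 9 genes described here belong to the inositol-dependent part of phospholipid synthesis in budding yeast or regulate it. They are INO1, ITR1, CHO1, PSD1, CHO2, OPI3, INO2, INO4 and OPI1. They were chosen by gene symbol, and all 9 were found among the 5449 genes of Saccharomyces cerevisiae measured on the arrays. Each is read by 1 probe set, the group of short probes on the array for a single gene, and none of these probe sets carries the suffix letter that marks possible cross-hybridization.

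The compared strains are acs2-Ts1 and wild-type ACS2, with 1 deposited sample each. In both, ACS2 is deleted from the chromosome with a HygMX marker, and a centromeric plasmid with URA3 supplies the temperature-sensitive allele acs2-Ts1 in one strain and wild-type ACS2 in the other. Both strains are of the BY4741 background and mating type a, carry his3delta1, leu2delta0, met15delta0 and ura3delta0, were grown in the rich medium YPD and spent 60 min at 37 °C before RNA extraction. ACS2 encodes an acetyl-CoA synthetase, which makes acetyl-CoA from acetate. The plasmids have different names (pHT215 for acs2-Ts1 and pHT112-1 for wild-type ACS2) and no sample was taken at a lower temperature, so an effect of the impaired enzyme and a difference of strain, plasmid or culture cannot be told apart. The titles of both samples hold the abbreviation for wild type, so the genotype field was used to assign the groups.

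Phosphatidylinositol and phosphatidylserine are both made from CDP-diacylglycerol, the activated form of phosphatidic acid. Phosphatidylserine is decarboxylated to phosphatidylethanolamine, which is methylated stepwise to phosphatidylcholine. Many genes of these steps carry an inositol-sensitive promoter element, bound by the paired activators Ino2 and Ino4. The repressor Opi1 is held at the endoplasmic reticulum by phosphatidic acid and enters the nucleus when inositol is plentiful and phosphatidic acid is consumed. INO1 is the classic strongly regulated target of this system, and rich medium contains inositol.

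Each deposited value is an intensity on a linear scale, the authors' mean of 2 arrays of a strain, scaled between strains on controls. With 1 sample per strain there is no replicate check and no test, so a gene is called higher or lower only as the acs2-Ts1 sample stands to the wild-type ACS2 sample. Each log2 ratio has acs2-Ts1 on top. As yardsticks, the log2 ratio had an SD of 0.17 over 27 hybridization controls of bacterial and phage origin, and probe sets of the same gene had a pooled SD of 0.43 over 47 genes. Both are technical spreads within the arrays and leave out the variation between cultures, which these samples do not measure. Whether the hybridization controls were among those used by the authors for scaling was not given. If they were, the SD of 0.17 may be too small. The all-gene median log2 ratio was -1.12, so ratios are also given relative to it. It was closer to 0 for bright genes, and ratios are therefore given relative to a smooth trend with level as well. In RNA from a whole culture, fewer cells of a type and less RNA per cell cannot be told apart.

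The mating type and the deletions were read as a check of the strains. The 5 a-specific genes read 290 to 2725 in acs2-Ts1 and 1182 to 4027 in wild-type ACS2. The 4 alpha-specific genes, silent in a cells, read 21.0 to 433 and 25.5 to 496. The upper values are those of SAG1, which read above the a-specific gene STE6 in acs2-Ts1. The other alpha-specific genes read at most 61.8 in acs2-Ts1 and 214 in wild-type ACS2. The deleted genes LEU2 and MET17 (also called MET15) read 77.5 and 77.5 in acs2-Ts1, against 68.0 and 47.9 in wild-type ACS2. ACS2 itself read 12426 in acs2-Ts1 and 10257 in wild-type ACS2, and since both strains carry it on a plasmid it does not check the labels.

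INO1 was the member that was higher in acs2-Ts1, and the other 8 were lower as deposited. Among all genes 86.4% were lower, so 8 of 9 is close to the background. At least 2-fold lower were 3 of the 9 (CHO1, INO4 and OPI3), against 55.9% of all genes. At least 2-fold higher was INO1, 1 of 9, against 3.67% of all genes. At a limit of 1.5-fold, every member other than INO1 and ITR1 was lower, 7 of 9 against 72.0% of all genes, and INO1 was higher, against 6.04%. At 3-fold there were 0 members lower and 0 higher, against 25.8% and 1.58% of all genes. The median log2 ratio of the 9 genes was -0.92, against -1.12 over all genes.

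**Figure D1:**
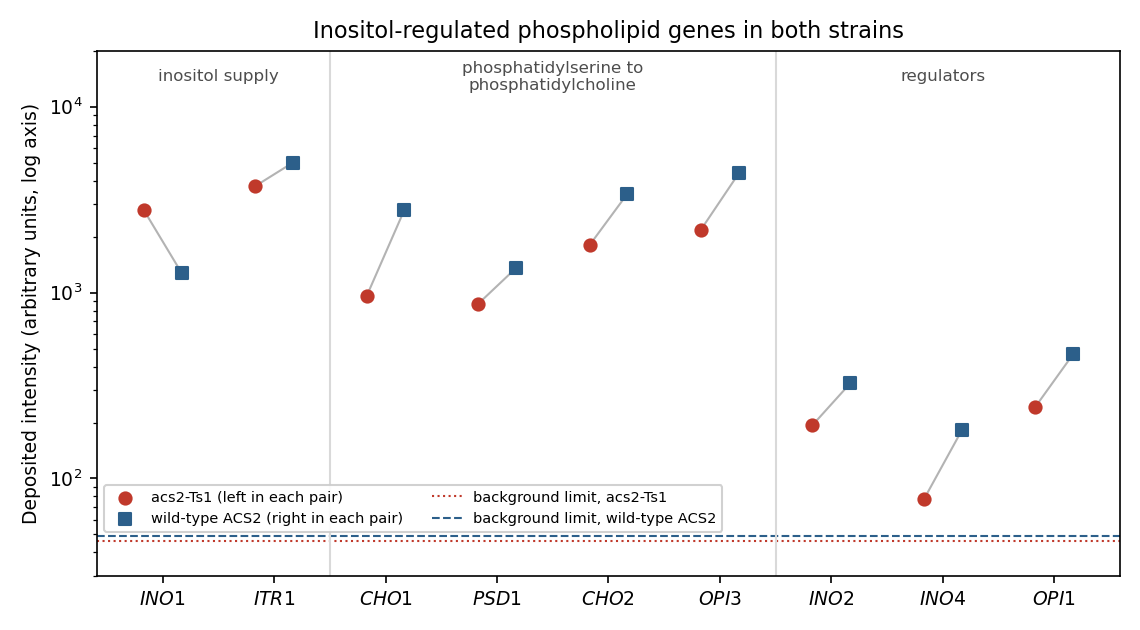
Deposited intensity (arbitrary units, log axis) of the 9 genes, with acs2-Ts1 as circles on the left and wild-type ACS2 as squares on the right of each pair, 1 sample each; the dotted and dashed lines are the background limits, 46.3 in acs2-Ts1 and 49.1 in wild-type ACS2. INO1 alone slopes down from acs2-Ts1 to wild-type ACS2, and INO4 lies nearest to the limits.

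INO1 (YJL153C) encodes inositol-3-phosphate synthase, which makes the inositol ring from glucose 6-phosphate. Its intensity was 2787 in acs2-Ts1 and 1277 in wild-type ACS2, 2.18-fold higher, a log2 ratio of 1.13. The spread between cultures was not measured, so whether this difference exceeds it is unknown. Of the 5449 genes, 168 had a higher ratio. Relative to the all-gene median the log2 ratio of INO1 was 2.25, and relative to the trend with level it was 1.90, at percentile 96.1 of all genes. Its direction was therefore the same on each of these scales. That does not check the direction, since the all-gene median and the trend at its level are negative. Removing them could only raise this positive ratio.

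ITR1 (YDR497C) encodes the major transporter that brings inositol into the cell. Its intensity was 3736 in acs2-Ts1 and 5008 in wild-type ACS2, 1.34-fold lower, and this log2 ratio of -0.42 is no larger than the spread between probe sets of a gene. Relative to the all-gene median it turned to 0.70, and relative to the trend with level it was -0.06. The genes for making and for importing inositol thus differed in log2 ratio by 1.55 (INO1 minus ITR1).

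CHO1 (YER026C) encodes phosphatidylserine synthase, which joins serine to CDP-diacylglycerol. It had the lowest ratio among the 8 genes other than INO4, with 956 in acs2-Ts1 and 2795 in wild-type ACS2, 2.92-fold lower (log2 ratio -1.55). The log2 ratio of INO4 was less low, at -1.23, but is set against background. The log2 ratio of CHO1 was -0.42 relative to the all-gene median, and -0.71 relative to the trend with level, at percentile 10.8 of all genes. As deposited it lay within the bulk of the genome, since 1503 genes had a lower ratio.

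PSD1 (YNL169C) encodes the mitochondrial phosphatidylserine decarboxylase, which acts on the product of Cho1. It read 869 in acs2-Ts1 and 1354 in wild-type ACS2, 1.56-fold lower (log2 ratio -0.64), a direction that turned to 0.48 relative to the all-gene median and to 0.35 relative to the trend. The consecutive genes of this branch differed in log2 ratio by 0.91 (PSD1 minus CHO1).

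CHO2 (YGR157W) encodes the methyltransferase for the entry step from phosphatidylethanolamine towards phosphatidylcholine. It read 1799 in acs2-Ts1 and 3401 in wild-type ACS2, 1.89-fold lower (log2 ratio -0.92). OPI3 (YJR073C) encodes the methyltransferase of the following steps. It read 2181 in acs2-Ts1 and 4387 in wild-type ACS2, 2.01-fold lower (log2 ratio -1.01). OPI3 lies just inside the 2-fold limit, and OPI1, at 1.92-fold lower, lies just outside it. The methyltransferase genes differed from each other by 0.09 (CHO2 minus OPI3), less than either yardstick. Relative to the all-gene median both turned slightly positive, to 0.21 for CHO2 and 0.12 for OPI3, and relative to the trend with level they were -0.28 and -0.48.

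INO2 (YDR123C) encodes the activator that holds the activation domains of the Ino2-Ino4 pair. It read 194 in acs2-Ts1 and 325 in wild-type ACS2, 1.68-fold lower (log2 ratio -0.75). INO4 (YOL108C), for the partner of Ino2, read 77.3 in acs2-Ts1 and 182 in wild-type ACS2. The acs2-Ts1 value of INO4 is at the level of the deleted genes LEU2 and MET17, so its log2 ratio of -1.23 sets the wild-type value against background. Without INO4, 2 of 8 members were at least 2-fold lower, against 55.9% of all genes.

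OPI1 (YHL020C), for the repressor, read 243 in acs2-Ts1 and 467 in wild-type ACS2, a log2 ratio of -0.94. The values of all 3 regulators lie in the range that the alpha-specific genes read, so background may be part of them, which was not tested. SAG1 alone sets the upper end of that range. INO2 and OPI1 read above the other alpha-specific genes, which reached 61.8 in acs2-Ts1 and 214 in wild-type ACS2. Relative to the all-gene median the log2 ratios were 0.37 for INO2, -0.11 for INO4 and 0.18 for OPI1. Relative to the trend with level all 3 were positive, at 0.67 for INO2, 0.22 for INO4 and 0.39 for OPI1. The activator INO2 and the repressor OPI1 thus had ratios on the same side on each scale.

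**Figure D2:**
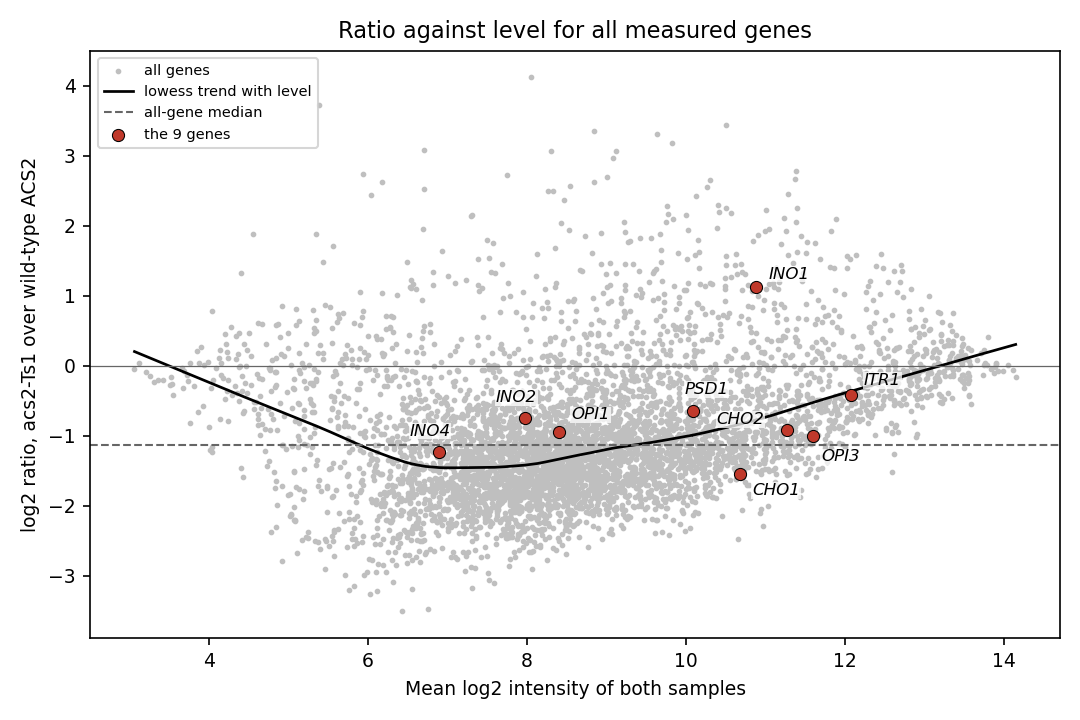
The log2 ratio (acs2-Ts1 over wild-type ACS2) against the mean log2 intensity of both samples for 5449 genes (grey), with the 9 genes in red, the lowess trend as a black line and the all-gene median of -1.12 dashed. INO1 lies well above the line, CHO1, OPI3 and CHO2 below it, ITR1 on it, and PSD1 and the regulators above it.

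With INO4 left out, because its ratio is set against background, the order from the lowest to the highest log2 ratio was CHO1, OPI3, OPI1, CHO2, INO2, PSD1, ITR1 and INO1. The step from CHO1 to OPI3 was 0.54, the steps from OPI3 up to ITR1 were each 0.22 or less, and the step from ITR1 to INO1 was 1.55. INO1 lay 2.06 above the median of the other 8 members, INO4 included. Without replicate cultures, whether neighbours in this order differ beyond the spread between cultures cannot be said.

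The sign of most of the other members depended on the scale. Relative to the all-gene median 7 of the 9 were positive and CHO1 and INO4 were negative. INO1 was then the member at least 2-fold higher, against 16.4% of all genes, and 0 of 9 were past 2-fold in the other direction, against 6.61%. Relative to the trend with level 5 were positive (INO1, INO2, OPI1, PSD1 and INO4) and 4 negative, INO1 was again the member past 2-fold, against 12.3% of all genes in that direction, and 0 of 9 were past it in the other, against 4.06%.

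**Figure D3:**
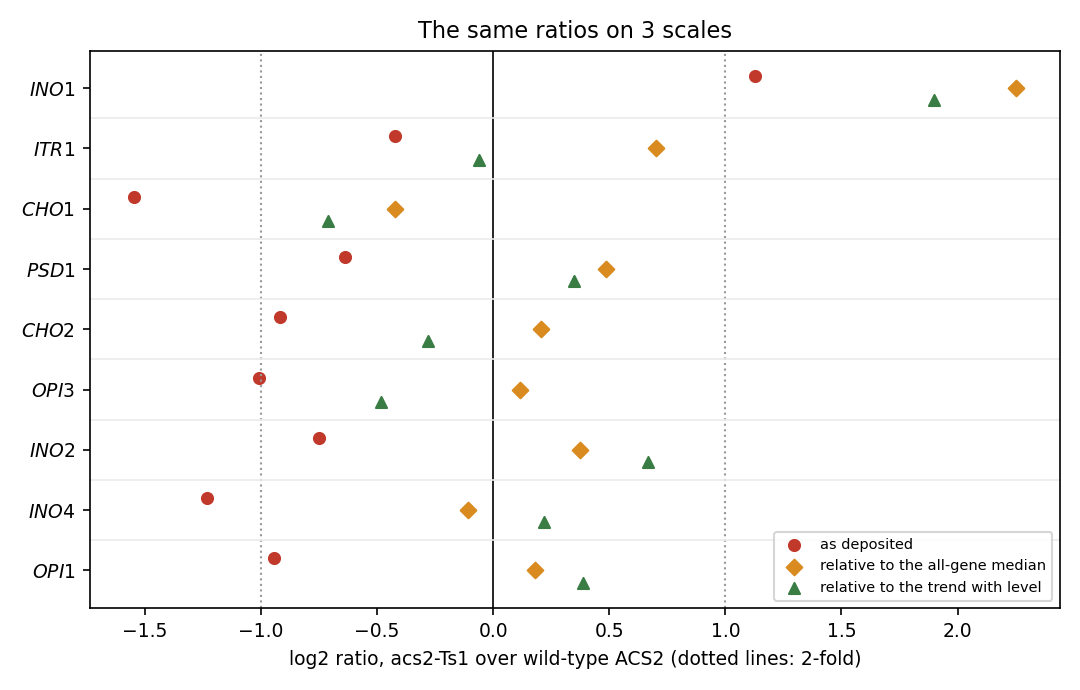
The log2 ratio (acs2-Ts1 over wild-type ACS2) for each of the 9 genes, as deposited (circles), relative to the all-gene median (diamonds) and relative to the trend with level (triangles), with dotted lines at a 2-fold difference. INO1 lies right of the upper line and CHO1 left of 0 on all 3 scales, while 6 genes change sign relative to the all-gene median.

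Another 52 genes of phospholipid and inositol metabolism were read for context. Past 2-fold there were 29 lower genes and 1 higher gene, against 55.9% and 3.67% of all genes, and their median log2 ratio of -1.10 was 0.03 from the all-gene median. In both samples all 52 were above the background limits of 46.3 in acs2-Ts1 and 49.1 in wild-type ACS2. The deleted gene LEU2 also passed both limits, at 77.5 in acs2-Ts1 and 68.0 in wild-type ACS2. Passing them therefore does not show expression, and background may be part of the dimmer values, which was not tested.

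Of 12 genes that make, use or dephosphorylate phosphatidic acid and its derivatives, 11 were at least 2-fold lower, against 55.9% of all genes. Their list median was -1.20, which is -0.08 relative to the all-gene median. The exception was SCT1, a glycerol-3-phosphate acyltransferase gene, at 1104 in acs2-Ts1 and 1058 in wild-type ACS2. LRO1, which encodes an acyltransferase that moves an acyl chain from phospholipid to diacylglycerol, had the lowest ratio, with 108 in acs2-Ts1 and 671 in wild-type ACS2 (log2 ratio -2.64). In the mitochondrial branch that makes and remodels cardiolipin, 3 of 6 genes were at least 2-fold lower, against the same 55.9% (list median -1.09). TAZ1, for the cardiolipin acyl transferase tafazzin, was lowest at -1.97, with 142 in acs2-Ts1 and 557 in wild-type ACS2. TAM41, for the mitochondrial CDP-diacylglycerol synthase, was highest at -0.70.

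PSD2, for the other phosphatidylserine decarboxylase, was read with the Kennedy pathway genes, which build phospholipids from free choline and ethanolamine. Of these 8 genes 5 were at least 2-fold lower, against 55.9% of all genes (list median -1.22). The choline kinase gene CKI1 was lowest, with 131 in acs2-Ts1 and 617 in wild-type ACS2 (log2 ratio -2.24). HNM1, for the choline transporter, was highest, with 3064 in acs2-Ts1 and 3465 in wild-type ACS2 (log2 ratio -0.18). The transporter genes ITR1, for inositol, and HNM1, for choline, thus both lay within the pooled SD of 0.43 from their wild-type values as deposited. ITR2, for another inositol transporter, lay just outside it at -0.44. Relative to the all-gene median ITR1, HNM1 and ITR2 were at 0.70, 0.95 and 0.68. Relative to the trend with level they were at -0.06, 0.32 and 0.31.

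Genes of inositol uptake, release and recycling had the widest range, from a log2 ratio of -2.30 to 1.40. Their list median was -0.41, which is 0.71 relative to the all-gene median. Past 2-fold 3 of 9 were lower and 1 higher, against 55.9% and 3.67% of all genes. The higher gene was PLB3, for a phospholipase B that releases glycerophosphoinositol, with 3637 in acs2-Ts1 and 1375 in wild-type ACS2 (log2 ratio 1.40). GDE1, for a glycerophosphodiesterase that acts on glycerophosphocholine, was lowest, with 75.7 in acs2-Ts1, dimmer than the deleted genes, and 374 in wild-type ACS2. All 6 phosphoinositide kinase genes, whose products phosphorylate phosphatidylinositol or its phosphates, were lower as deposited, against 86.4% of all genes. At least 2-fold lower were 4 of the 6, against 55.9% of all genes. Their list median was -1.21, which is -0.08 relative to the all-gene median. These kinase genes ran from VPS34 at -1.98, with 153 in acs2-Ts1 and 605 in wild-type ACS2, to FAB1 at -0.89.

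Among 7 other regulators of the inositol response, 3 were at least 2-fold lower, against 55.9% of all genes (list median -0.96). SCS22, a homologue of the Opi1 anchor gene SCS2, was lowest at -2.12, with 141 in acs2-Ts1 and 616 in wild-type ACS2. HAC1, for the transcription factor of the unfolded protein response, was highest, with 10309 in acs2-Ts1 and 6531 in wild-type ACS2 (log2 ratio 0.66), and these values do not tell its spliced from its unspliced message. Of 4 other genes known to carry an inositol element (FAS1, FAS2, ACC1 and ACS2), 0 were past 2-fold as deposited. Of all genes 55.9% were lower and 3.67% higher past that limit. Relative to the all-gene median 3 of these 4 bright genes were at least 2-fold higher, against 16.4% of all genes. These 3 include ACS2, at 1.40, which is read from plasmids whose alleles differ between the strains. Relative to the trend with level 0 of the 4 were, with values from -0.23 for ACC1 to 0.75 for FAS1. The fatty acid synthase gene FAS1 was highest, with 12185 in acs2-Ts1 and 7222 in wild-type ACS2 (log2 ratio 0.75), and the acetyl-CoA carboxylase gene ACC1 lowest at -0.60, which turned to 0.52 relative to the all-gene median.

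**Figure D4:**
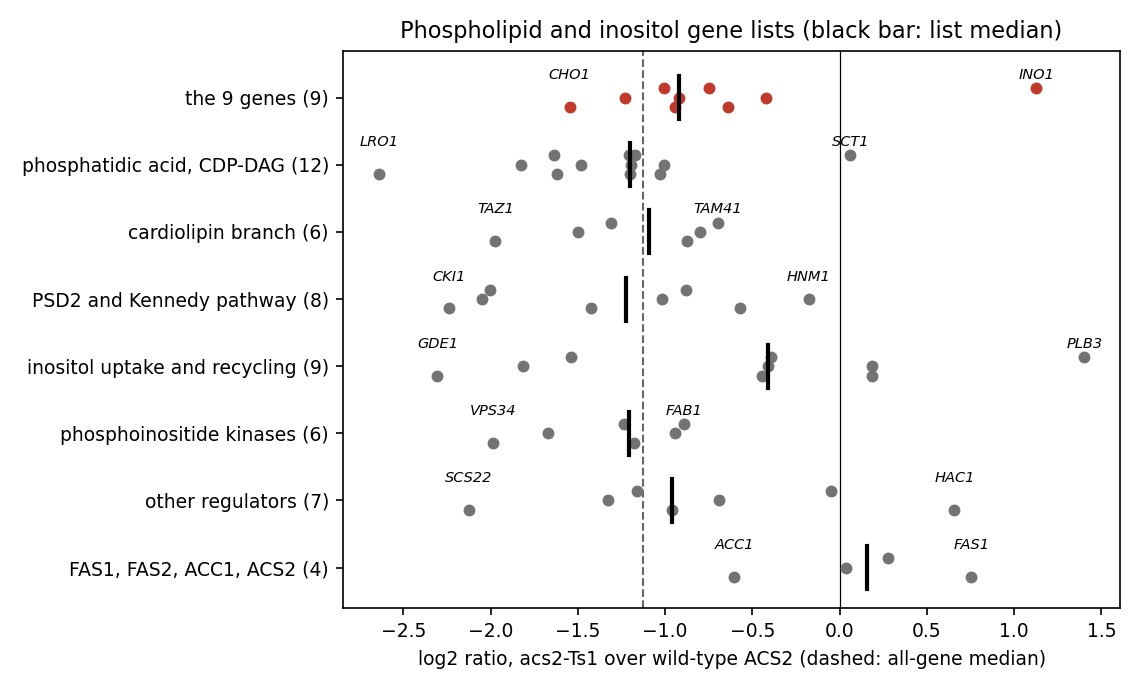
Each point is the log2 ratio (acs2-Ts1 over wild-type ACS2) of 1 gene, by list, with list sizes in brackets, black bars for list medians, the dashed line at the all-gene median of -1.12, and the lowest and highest gene of each list named. INO1 and PLB3 are the genes past 2-fold higher as deposited among those plotted.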

How the data were processed

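The deposited table holds linear intensities per probe set for 2 samples. Per the labels and design text, background of 4 arrays was corrected by the authors with RMA, the 2 arrays of a strain were averaged, and the means were normalized by a lowess fit to controls, since the submitters state that expression changed globally and did not apply scaling or quantile normalization. The controls, the summary step and the versions were not given in the sources used here. Single arrays were not analysed here, and the number of arrays limits the precision.

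Of 10928 probe sets, 7244 have 1 gene in the platform annotation, 1 has several and 3683 have none. Through RefSeq's gene table (assembly R64, names and gene order only), 5498 matched 5449 genes, each read by its brightest probe set, those with a suffix letter coming last. The background limit is the 95th percentile of 1746 probe sets of genes outside the species. The log2 ratio has no pseudocount. The trend is a lowess curve of span 0.30. Promoter sequences were not used here, and 1 gene of the original list is not reported here. Python 3.11.15, numpy 2.4.6, pandas 2.3.3 and statsmodels 0.14.6 were used.

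The members and lists were chosen with earlier results of these data known. Named are the members, the lowest and highest gene of each other list, genes past 2-fold higher, and the strain checks. The other scalings, background steps and fold limits tried are given with the closing observations.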

Additional observations from a re-analysis of the deposited data

How the results depend on the processing

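The direction of INO1 was kept under all 6 scaling, background and probe set alternatives, at log2 ratios from 1.11 (32 added to both values) to 2.25. None of these alternatives could have reversed it, so they do not check its direction. The all-gene median and the trend at the level of INO1 are negative, so removing them raises a positive ratio. Adding 32 to both values cannot change which is larger, and the background is small beside both INO1 values. Centred on the all-gene median, the median of the 9 genes turned from -0.92 to 0.21, the number of lower members was 2 and OPI3 turned to 0.12. With the trend with level removed, that median was 0.22, 4 members were lower and INO4, then the middle member, turned to 0.22. Under each of these 2 alternatives 0 members were at least 2-fold lower, against 3 as deposited. The shares of all genes at least 2-fold lower were 6.61% relative to the median, 4.06% relative to the trend and 55.9% as deposited. With 32 added to both values 1 member was at least 2-fold lower, and the all-gene median log2 ratio was then -0.999. At a fold limit of 1.5 there were 7 lower members, against 72.0% of all genes. At a limit of 3 there were 0 lower and 0 higher, against 25.8% and 1.58%. These shifts follow from the construction of the alternatives. Centring on hybridization controls, subtracting background, the mean of all probe sets, adding 32, a filter on low values and leaving out INO4, the last chosen after seeing the data, kept the median between -0.92 and -0.83. Each member has 1 probe set and lies above the background limit, so the probe set and filter alternatives changed no member. Centring on the hybridization controls could barely change any gene either, INO1 included. As deposited, their log2 ratios already centred on -0.005 (median), so that alternative does not check the scaling. No paired analysis was possible because each strain has 1 deposited sample. Leaving out a replicate was not possible for the same reason. Signal over background limits INO4 most: its log2 ratio ran from -1.41 with background subtracted to -0.97 with 32 added.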

Other observations

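The genes next to the 9 members in RefSeq's order were read to see whether INO1 shared its direction with its surroundings, a choice made after the values of the members were seen. Of 18 neighbours 16 were measured, 14 were lower as deposited, 11 of them by 2-fold or more, and none was higher by 2-fold. Of all genes 86.4% were lower, with 55.9% lower and 3.67% higher past 2-fold, so the share of lower neighbours is close to the background. The median log2 ratio of the neighbours was -1.39, against -1.12 over all genes. Beside INO1, VPS35, a retromer gene, read 662 in acs2-Ts1 and 837 in wild-type ACS2 (log2 ratio -0.34), and SNA3, for a protein of the vacuolar sorting pathway, read 4147 in acs2-Ts1 and 4060 in wild-type ACS2 (log2 ratio 0.03). Both of these neighbours thus lay above the all-gene median of -1.12, as INO1 did, unlike the median neighbour. INO1 had a higher log2 ratio than either of them. Neighbours of other members also lay above that median: AIM17 beside OPI1 (0.21), YDR124W beside INO2 (-0.48), PTI1 beside CHO2 (-0.92) and PUF6 beside ITR1 (-1.03). The remaining measured neighbours lay below it. SNA3 is also bright, and ratios ran higher in bright genes. Whether INO1 shared an effect with its neighbours was not tested.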
